A study of Mus musculus with 13 samples.

Results

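Carbonic anhydrases were examined in excitatory neurons of the mouse claustrum, a thin nucleus beside the insular cortex that is widely connected with the neocortex. The members were 8 genes, chosen by name from the 23427 genes of the count tables: Car2, Car3, Car4, Car7, Car8, Car10, Car11 and Car12. Cells with at least 1 count of Snap25, a neuronal synaptic gene, and of Slc17a7, the vesicular glutamate transporter of cortical excitatory neurons, were kept, which left 1011 of 1112 harvested cells. The genes were listed with their levels in these cells already known. Cells were also divided by Synpr, a synaptic vesicle gene used as a claustrum marker, into Synpr-high cells (at least 200 CPM, which are counts scaled to the same total for every cell; 438 cells) and Synpr-low cells (573 cells). Since this limit chose the cells, Synpr itself is given no test. The Synpr-high cells nearest the limit held 209 and 235 CPM and the Synpr-low cells nearest to it 199.9 and 180.2 CPM. Of all kept cells, 13 lay between 100 and 200 CPM, 8 between 200 and 400 CPM, and 397 had no Synpr count.

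All 4 mice were mature male C57BL/6 animals. In 1 of them, labelled WT and without a projection label and called the blindly sampled mouse (238 kept cells), rAAV2-retro-CAG-GFP in the anterior cingulate cortex guided the dissection and played no part in picking cells. In projection mice 1, 2 and 3 (224, 220 and 329 kept cells), red retrobeads were placed in the retrosplenial cortex (RSC) and green ones in the lateral entorhinal cortex (LEC), so that axons carried the beads back to the claustrum. These mice gave 247 RSC-labeled, 286 LEC-labeled and 240 unlabeled cells. Unlabeled is the deposited word for cells given neither projection label, and their targets are not known. Cells were picked by hand and processed on 13 plates, of which 3 held the blindly sampled mouse. Kept cells had a median of 26023 counts in the mouse sampled blindly and 138535 to 154262 counts in projection mice, so that mouse and depth cannot be told apart. The paper states that 3 plates shared 1 flowcell and the remaining 10 another, without naming them. If the 3 were those of the blindly sampled mouse, sequencing run cannot be told apart from mouse and depth either. Of 368 well barcodes 343 occurred on more than 1 plate, and no cell name occurred more than once. The 6 core-like markers fixed for naming (Synpr among them) summed to 6145 to 6493 CPM in Synpr-high cells and 329 to 722 CPM in Synpr-low cells of the 4 mice, and all 6 were detected.

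Carbonic anhydrases are zinc enzymes that convert carbon dioxide and water to bicarbonate and a proton, and so set the speed at which tissue pH is buffered. In the brain they supply the bicarbonate that passes through GABA-A receptors and that ion exchangers carry. Car2, Car3 and Car7 are cytosolic, Car4 is anchored by a lipid to the outer face of the cell membrane and Car12 spans that membrane with its catalytic domain outside. Car8, Car10 and Car11 are related proteins without the classical activity: Car8 binds the IP3 receptor in Purkinje cells, and Car10 and Car11 are secreted glycoproteins. Outside neurons, Car2 is a well-known product of oligodendrocytes, and Car3 is abundant in slow muscle and fat.

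The coding sequence around the zinc site is shown for 7 members because the codons for the zinc ligands differ among them. The 3 codons aligned to the zinc-binding histidines of Car2 are in capitals, 5′ to 3′ on the coding strand, from the GENCODE transcripts of GRCm38. All 3 code for histidine (CAC or CAT) in Car2, Car3, Car4, Car7 and Car12, 1 does so in Car10 and 0 in Car11.
Car2: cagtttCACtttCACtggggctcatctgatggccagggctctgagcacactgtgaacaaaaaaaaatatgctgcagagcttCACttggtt
Car3: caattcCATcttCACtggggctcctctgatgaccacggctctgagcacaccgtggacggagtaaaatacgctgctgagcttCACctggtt
Car7: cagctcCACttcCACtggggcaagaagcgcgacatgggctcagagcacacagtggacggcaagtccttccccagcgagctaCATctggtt
Car4: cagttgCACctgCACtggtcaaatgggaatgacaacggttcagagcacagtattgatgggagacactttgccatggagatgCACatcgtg
Car12: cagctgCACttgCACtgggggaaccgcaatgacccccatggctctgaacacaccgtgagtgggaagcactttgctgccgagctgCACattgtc
Car10: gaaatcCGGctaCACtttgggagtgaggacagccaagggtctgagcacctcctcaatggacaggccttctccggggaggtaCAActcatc
Car11: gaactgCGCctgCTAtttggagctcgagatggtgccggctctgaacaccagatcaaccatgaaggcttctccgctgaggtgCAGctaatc
Translated along their length and aligned, Car3 was 56.9% identical to Car2, Car7 55.0%, Car12 37.5%, and Car4, Car10 and Car11 33.3% each. Car13, Car1, Car3 and Car2 follow one another on chromosome 3 with no other protein-coding gene between them. Car4 and Car10 lie on chromosome 11, Car7 on chromosome 8, Car8 on chromosome 4, Car11 on chromosome 7 and Car12 on chromosome 9. No exon of the 8 members overlaps an exon of another gene in that annotation.

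Synpr-high and Synpr-low cells were compared to ask how the family divides across the Synpr limit. The Synpr-low class was mixed, since it took all but 6 of the 461 cells of a shell-like cluster and all but 2 of the 115 cells of a cluster led by Rprm. Car2 and Car3 were higher in Synpr-high cells, Car7 and Car10 were higher in Synpr-low cells, and Car4, Car11 and Car12 did not pass the test. Counts of a mouse's cells were added up per class and expressed as CPM after TMM normalization. Of the 8 members 7 passed the filter on low counts, Car3 through its Synpr-high sums, and Car8 did not. Of the 7, 2 were called higher and 2 lower at an adjusted p below 0.05, where 8.82% of the 13641 genes tested were called, 4.48% higher and 4.34% lower (14.6% in all with the mouse as a block, which left the calls of all 7 as they were). The study had placed Car2, Car3 and Car10 in lists of cluster genes made from these same cells, so these calls are not independent evidence of direction.

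Car2 in Synpr-high cells stood at 114 CPM in the blindly sampled mouse and at 166, 131 and 181 CPM in projection mice 1, 2 and 3. In Synpr-low cells the same mice gave 3.98, 4.08, 9.83 and 0.605 CPM. The classes did not overlap in any mouse, with means of 148 ± 31.0 and 4.63 ± 3.83 CPM (SD, n = 4 mice each). The difference was 4.99 ± 0.66 on the log2 scale (SE; edgeR, adjusted p = 0.00106). Oligodendrocyte markers, 7 of 7 detected in both classes, summed to 52.3 to 462 CPM in Synpr-high and 58.2 to 706 CPM in Synpr-low cells, and 0 of the 6 tested were called. Cells with at least 3 of these markers, or with counts of both Gad1 and Gad2, genes of inhibitory neurons, are called cells with counts of other types. No other marker was used to find them. With these 75 cells left out, the log2 difference of Car2 was 7.06 (adjusted p = 3.53e-05).

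Car3, the slow cytosolic form, showed the same division. Its level in Synpr-high cells was 74.2 CPM in the blindly sampled mouse and 62.2, 40.4 and 65.2 CPM in projection mice 1, 2 and 3. Synpr-low cells held 0, 0.0516, 1.63 and 0.605 CPM in that order. Every Synpr-high value was far above every Synpr-low value, with means of 60.5 ± 14.3 and 0.572 ± 0.757 CPM. The log2 difference was 6.44 ± 0.70 (adjusted p = 0.000376; 4.49e-05 with no filter on low counts). Since the Synpr-high sums alone carried Car3 past the filter, its call is a description of where its counts lay.

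**Figure D1:**
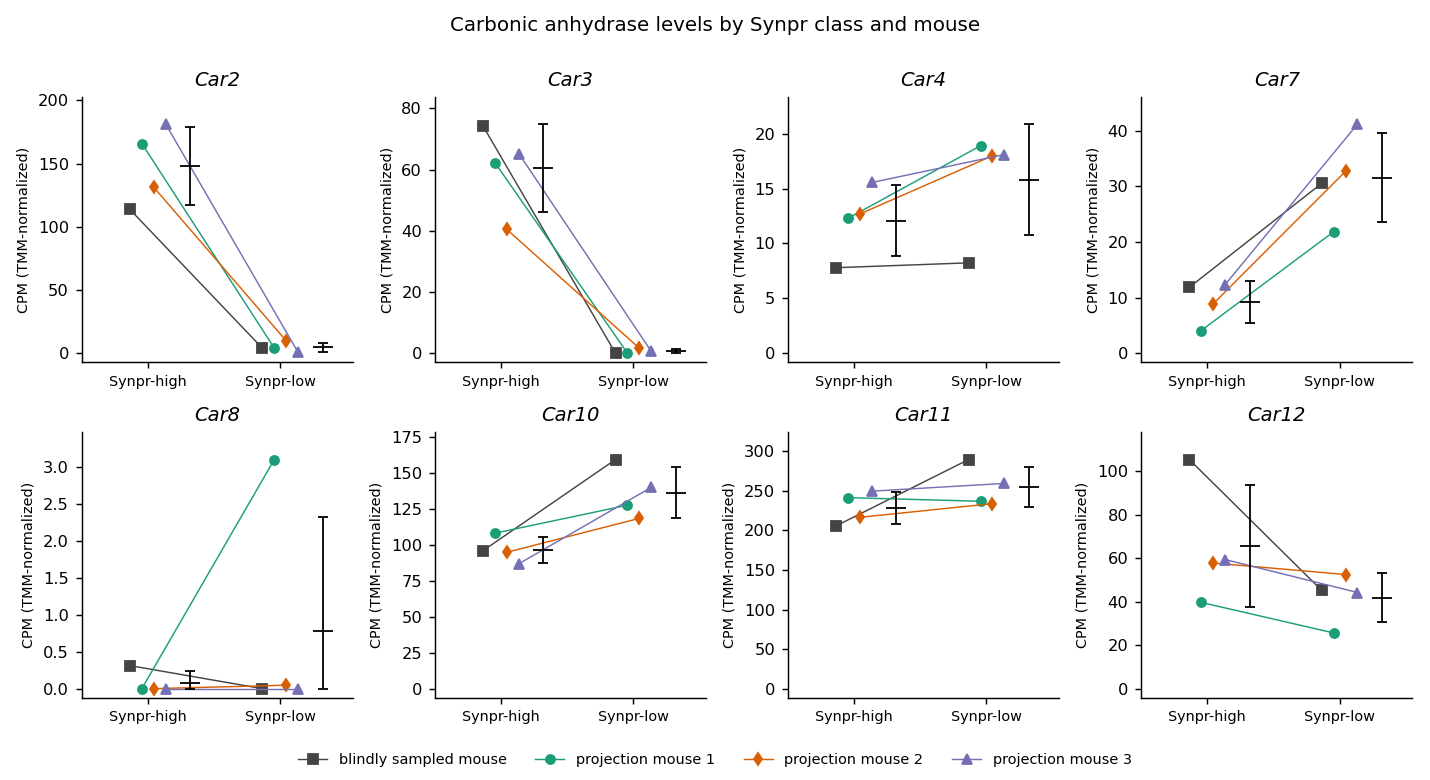
TMM-normalized CPM of each member (y axis, linear) in Synpr-high and Synpr-low cells (x axis), 1 point per mouse joined by a line, with the mean and SD of 4 mice in black (lower bars stop at 0). Car2 and Car3 fall to below 10 CPM in Synpr-low cells of all 4 mice, Car7 and Car10 rise in all 4, and Car8 is near 0 apart from 1 mouse.

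Car7, a cytosolic enzyme of neurons, ran the other way. In Synpr-high cells it stood at 11.8 CPM in the blindly sampled mouse and 4.08, 8.87 and 12.3 CPM in projection mice 1, 2 and 3, and in Synpr-low cells at 30.5, 21.8, 32.7 and 41.2 CPM. The classes did not overlap, and the log2 difference was -1.78 ± 0.35 (adjusted p = 0.00983). It was -1.75 (adjusted p = 0.0812) without projection mouse 2 and -1.81 (0.0570) without projection mouse 3. Interneuron markers, of which 6 of 8 had a row, summed to 1.25 to 504 CPM in Synpr-high cells and 127 to 1072 CPM in Synpr-low cells, with none at 0 in either class. Leaving out the 75 cells with counts of other types gave a log2 difference of -1.85 for Car7 (adjusted p = 0.0142). That step cannot remove cells that hold interneuron markers other than Gad1 and Gad2 on that ground. The part of interneuron markers in the Car7 difference was not tested.

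Car10, a secreted glycoprotein, was lower in Synpr-high cells by a smaller margin. Synpr-high cells held 96.0 CPM in the blindly sampled mouse and 108, 94.9 and 86.8 CPM in projection mice 1, 2 and 3, and Synpr-low cells held 159, 128, 118 and 140.0 CPM. The log2 difference was -0.50 ± 0.13 (adjusted p = 0.0399). The direction held in all 15 settings tried, while the call held in 7 of them, and the adjusted p reached 0.257 without projection mouse 3. It was 0.0668, 0.0895 and 0.106 when the blindly sampled mouse or projection mouse 1 or 2 was left out.

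Levels of the remaining members overlapped between the classes. Car12, the transmembrane enzyme, ranged from 39.7 to 105 CPM in Synpr-high and from 25.6 to 52.5 CPM in Synpr-low cells, and was higher in Synpr-high cells of all 4 mice (log2 difference, 0.64 ± 0.31; adjusted p = 0.284). Without the blindly sampled mouse that difference was 0.36. Car4 ranged from 7.79 to 15.6 CPM and from 8.23 to 18.9 CPM (-0.39 ± 0.31; adjusted p = 0.594). Car11 ranged from 206 to 250 CPM and from 234 to 290 CPM (-0.16 ± 0.11; adjusted p = 0.515). Car8 had 62 counts in 4 of all kept cells, and 60 of them lay in Synpr-low cells of projection mouse 1. Across the 13641 genes, 15.5% had classes that did not overlap, as did Car2, Car3, Car7 and Car10 among the 7 members tested.

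The share of cells with a count showed how each level was spread over cells. Each cell was thinned to 20000 counts, which 927 cells had (406 Synpr-high, 521 Synpr-low; 171 from the blindly sampled mouse). A Car2 count was found in 67.0% of Synpr-high cells (95% exact binomial interval, 62.2 to 71.6%) and 2.30% of Synpr-low cells (1.20 to 3.99%). Car3 was found in 138 of the 406 (29.4 to 38.8%) and in 2 of the 521, or 0.384% (0.0465 to 1.38%). Without thinning, the shares were 75.1% and 5.76% for Car2 and 43.4% and 2.27% for Car3. Within the Synpr-high class the thinned Car2 share was 48.2% in the blindly sampled mouse and 67.8, 74.1 and 73.2% in projection mice 1, 2 and 3. For Car3 it was 38.8, 37.9, 22.4 and 35.6%. Intervals cover counting error only.

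Car7 was found in 9.36% of thinned Synpr-high cells (6.71 to 12.6%) and 25.7% of Synpr-low cells (22.0 to 29.7%). Car10 had shares with overlapping intervals, 65.5% (60.7 to 70.1%) and 69.7% (65.5 to 73.6%), and the unthinned shares stood in the opposite order (85.4% and 79.9%). Car11 was found in 88.7% and 86.6%, Car12 in 42.9% and 34.2%, and Car4 in 12.8% and 13.4%. Car8 was found in 0 of 406 Synpr-high cells, for which the interval reached 0.904%, and in 2 of 521 Synpr-low cells.

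**Figure D2:**
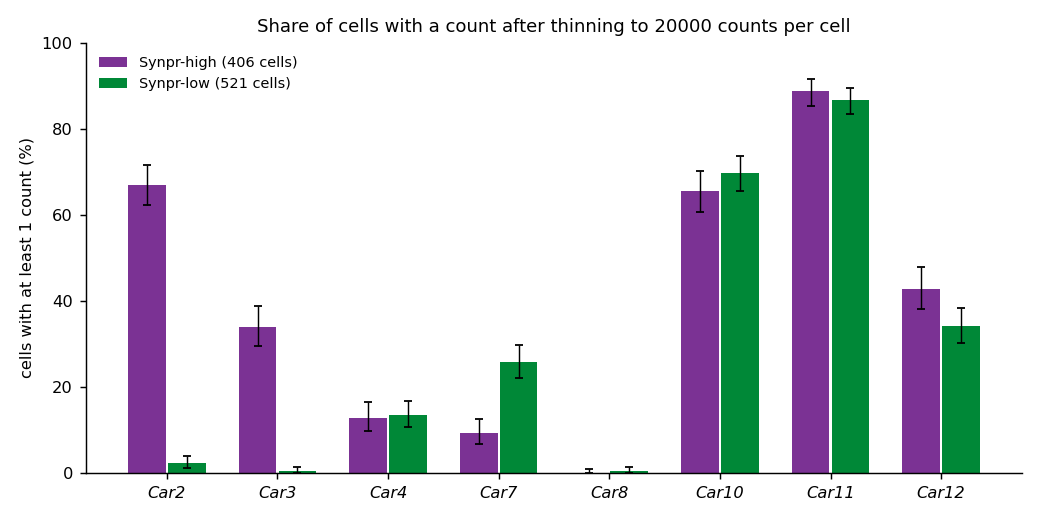
Share of thinned cells with at least 1 count (y axis, percent) for each member (x axis) in 406 Synpr-high and 521 Synpr-low cells of 4 mice, with 95% exact binomial intervals. Car2 and Car3 are nearly limited to the Synpr-high bars, Car7 is higher in the Synpr-low bar, and Car10 and Car11 are found in most cells of both classes.

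Car2 and Car3 were counted together in some Synpr-high cells and apart in others. Of the 406 thinned Synpr-high cells, 272 had a Car2 count, 138 a Car3 count, 93 both and 89 neither. Car2 was found in 67.4% of cells with Car3 and 66.8% of cells without it. These shares pool all mice, which differed in their shares of both genes, and were not compared within a mouse. At full depth the median Synpr-high cell held 23.5 CPM of Car2 in the blindly sampled mouse and 103, 114 and 139 CPM in projection mice 1, 2 and 3. The median Car3 level was 0 in 3 of the mice and 3.78 CPM in projection mouse 3, while the upper quartile reached 116, 91.1, 7.82 and 96.9 CPM. The highest level in a single Synpr-high cell was 964 CPM for Car2 and 638 CPM for Car3. A Synpr-low cell of the blindly sampled mouse reached 2225 CPM of Car2, although Synpr-low cells of that mouse held only 15 Car2 counts in all.

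The few Synpr-low counts of both genes came from a few cells. Car2 had 322 counts in 33 of the 573 Synpr-low cells, and 78.6% of them lay in 3 cells. Of the 33 cells, 4 had at least 3 of the 7 oligodendrocyte markers and held 265 of the 322 counts. Car3 had 53 counts in 13 Synpr-low cells, none of which had that many oligodendrocyte markers, and 42 of the counts lay in 2 cells of the core-like cluster described next.

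Clustering of the kept cells with all carbonic anhydrase rows left out gave 3 clusters, of which 2 could be named from marker lists. The core-like cluster (435 cells, 430 of them Synpr-high) was led by Synpr and Prkcd, with Car3 and Car2 also among its 10 leading genes, and the shell-like cluster (461 cells) by Dcn, Slc30a3 and Col5a2. The remaining cluster (115 cells) was led by Rprm, Cplx3 and Foxp2, genes of layer 6 neurons, and had Gad1 and Gad2, genes of inhibitory neurons, among its 10 leading genes, so it was called the Rprm cluster. A finer resolution divided it into 85 and 30 cells. Of the 3 naming lists the layer 6-like one scored highest in both portions, with 7 of 7 and 6 of 7 markers detected. Gad1 and Gad2 were among the 10 leading genes of neither, while the 30-cell portion had Pvalb, another interneuron marker, among them. The lists behind these names were drawn up with the study's clusters known, and levels by cluster are given as a description without a test. Median totals per cell were 127122 counts in the core-like, 128483 in the shell-like and 99284 in the Rprm cluster.

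Clusters showed that the Synpr-low class held 2 very different levels of Car10. In the shell-like cluster Car10 stood at 201 CPM in the blindly sampled mouse and 154, 137 and 155 CPM in projection mice 1, 2 and 3. The core-like cluster held 97.4, 111, 95.1 and 90.6 CPM, and the Rprm cluster 46.4, 28.3, 35.5 and 33.7 CPM. At the finer resolution its 85-cell portion held 68.7 CPM in the blindly sampled mouse, from 14 counts in 9 cells. In projection mice that portion held 29.9 to 37.9 CPM. Its 30-cell portion held 41.1 CPM in the blindly sampled mouse and 52.7 CPM in projection mouse 2, the mice with at least 5 such cells. The order was shell-like, core-like, Rprm in all 4 mice, and the ranges of neighbours did not overlap. A Car10 count was found in 80.2% of thinned shell-like cells, 66.1% of core-like cells and 26.9% of Rprm cells.

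Car12 had another order. It stood at 40.6 to 108 CPM in the core-like, 31.8 to 58.0 CPM in the shell-like and 2.31 to 27.5 CPM in the Rprm cluster. The core-like and shell-like ranges overlapped, while the Rprm range lay below both. A Car12 count was found in 43.8% and 39.0% of thinned core-like and shell-like cells and in 13 of 108 thinned Rprm cells. Car7 ranged from 4.18 to 12.8 CPM in the core-like, 17.7 to 43.2 CPM in the shell-like and 15.0 to 39.1 CPM in the Rprm cluster, and the shell-like and Rprm ranges overlapped. Car11 ran from 266 to 342 CPM in the Rprm cluster, against 218 to 269 CPM in the shell-like and 196 to 258 CPM in the core-like cluster. Car4 overlapped among all 3 clusters, between 5.30 and 23.3 CPM.

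**Figure D3:**
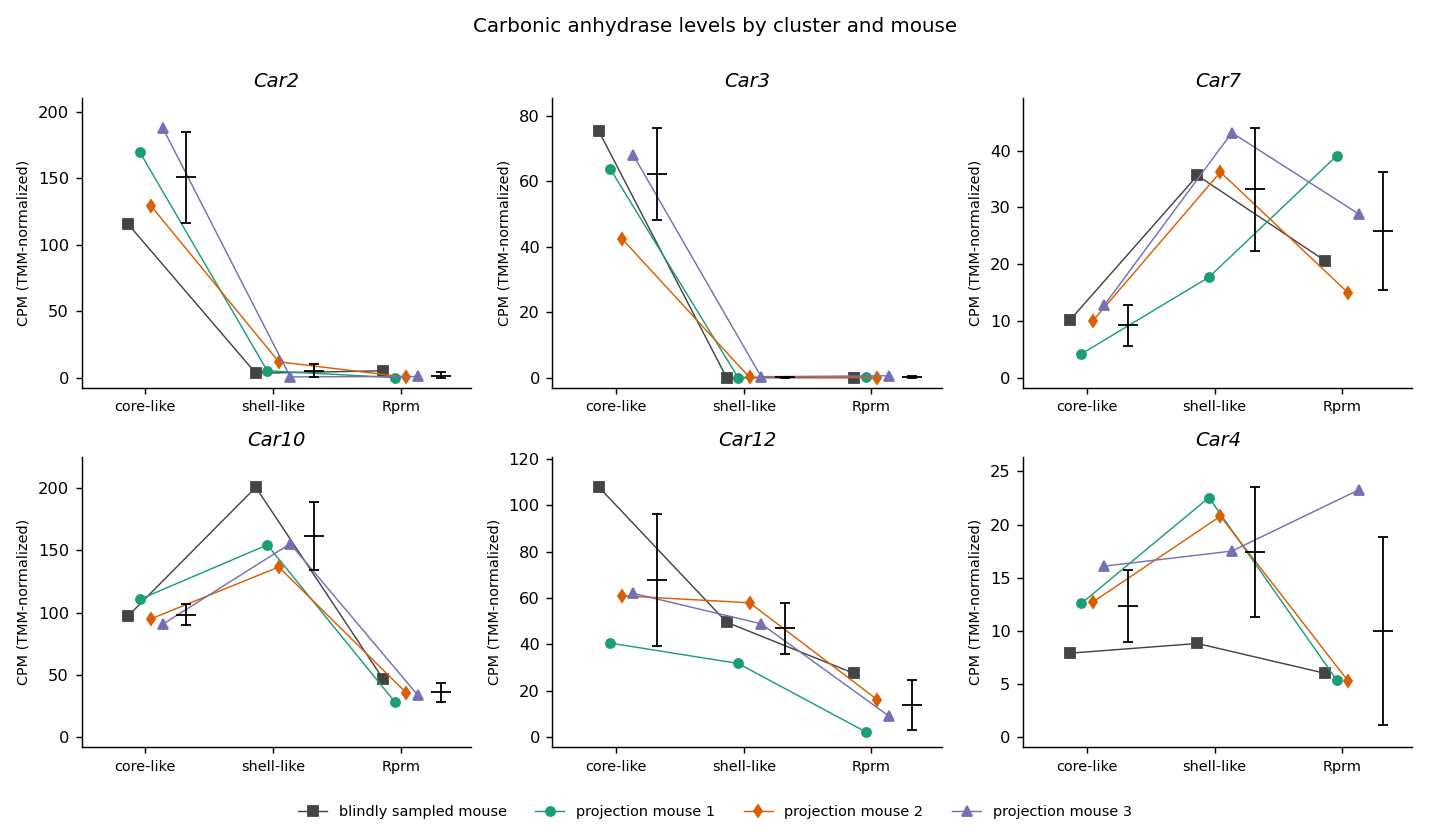
TMM-normalized CPM (y axis, linear) of 6 members in the core-like, shell-like and Rprm clusters (x axis), 1 point per mouse joined by a line, with the mean and SD of 4 mice in black (lower bars stop at 0). Car2 and Car3 stand out in the core-like cluster, Car10 is highest in the shell-like and lowest in the Rprm cluster of every mouse, and Car12 is lowest in the Rprm cluster.

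Cells labeled from the RSC and the LEC were compared to ask whether carbonic anhydrases divide by projection target. Car2 and Car3 were higher in RSC-labeled cells in all 3 projection mice, and no other member passed the test. Of the 7 members tested 2 were called higher and 0 lower, where 3.95% of 13976 genes were called, 1.89% higher and 2.06% lower. RSC-labeled cells of projection mice 1, 2 and 3 held 171, 108 and 166 CPM of Car2 and LEC-labeled cells 48.4, 34.1 and 34.5 CPM (means, 148 ± 35.1 and 39.0 ± 8.11 CPM, n = 3). The log2 difference was 1.93 ± 0.37 (adjusted p = 0.0158). For Car3 the values were 60.6, 40.8 and 67.1 CPM against 13.6, 2.03 and 8.54 CPM (means, 56.2 ± 13.7 and 8.07 ± 5.82 CPM), and the log2 difference was 2.79 ± 0.51 (adjusted p = 0.0129). The labels did not overlap for either gene, which held for 22.0% of all genes tested. Without projection mouse 2 or 3 the adjusted p of Car2 was 0.150 and 0.140, and that of Car3 was 0.215 without projection mouse 3.

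Synpr classes were unequal between the labels, since 213 of the 247 cells with the RSC label and 45 of the 286 with the LEC label were Synpr-high. Oligodendrocyte markers, 7 of 7 detected, summed to 60.4 to 1129 CPM in RSC-labeled and 127 to 461 CPM in LEC-labeled cells, and 0 of 7 were called. Without the 75 cells with counts of other types, the log2 difference was 2.14 for Car2 (adjusted p = 0.00737) and 2.78 for Car3 (0.0158).

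Car7 stood at 5.78, 11.1 and 14.6 CPM in RSC-labeled and 12.1, 27.6 and 38.6 CPM in LEC-labeled cells of projection mice 1, 2 and 3. It was lower with the RSC label in all 3 mice, the labels overlapped, and the log2 difference was -1.31 ± 0.42 (adjusted p = 0.127). DESeq2 called it (adjusted p = 0.0277), where it called 8.19% of genes, and so did edgeR after thinning (0.0323; 0.0255 with the mouse as a block). The 6 interneuron markers with a row summed to 19.9 to 724 CPM in RSC-labeled and 474 to 1029 CPM in LEC-labeled cells, where Gad1, Gad2 and Sst were at 0, and 1 of 5 tested was called higher with the RSC label. Their part in the Car7 values was not tested. Car10 held 133, 105 and 107 CPM against 132, 135 and 129 CPM (-0.20 ± 0.14; adjusted p = 0.575). Car4 (-0.71 ± 0.35), Car11 (0.17 ± 0.12) and Car12 (0.23 ± 0.33) had adjusted p-values of 0.361, 0.576 and 0.831. Car8 had no count in RSC-labeled or unlabeled cells of these mice.

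Unlabeled cells of the same mice, which share 1 fit with the labeled cells, lay near the LEC label for Car2 and between the labels for Car3. Their Car2 levels were 22.2, 47.7 and 75.9 CPM and their Car3 levels 16.9, 16.2 and 23.7 CPM. RSC-labeled cells exceeded them without overlap for both genes, and Car7 was lower without overlap, as 19.3% of all genes did not overlap. The log2 differences of Car2 and Car3 were 1.60 ± 0.37 and 1.57 ± 0.49 (edgeR, adjusted p = 0.0599 and 0.172). By edgeR 0 of 7 members were called, where 1.63% of genes were, and 3 had an unadjusted p below 0.05 (13.5% of genes). DESeq2, with 4.74% of genes called, called Car2 (adjusted p = 4.09e-05), Car3 (0.0147) and Car7 (0.0245). Without the 75 cells with counts of other types edgeR called Car2 (adjusted p = 0.0439). Between LEC-labeled and unlabeled cells 0 of 7 members were called by edgeR or DESeq2, where edgeR called 0.0% and DESeq2 0.816% of genes. Unadjusted p-values of Car3 and Car10 were 0.0310 and 0.00888, and 7.72% of genes had one below 0.05. Car10 held 85.0, 95.6 and 109 CPM in unlabeled cells, all below the LEC-labeled values (log2 difference, 0.45 ± 0.14; adjusted p = 0.453; 12.6% of genes did not overlap).

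**Figure D4:**
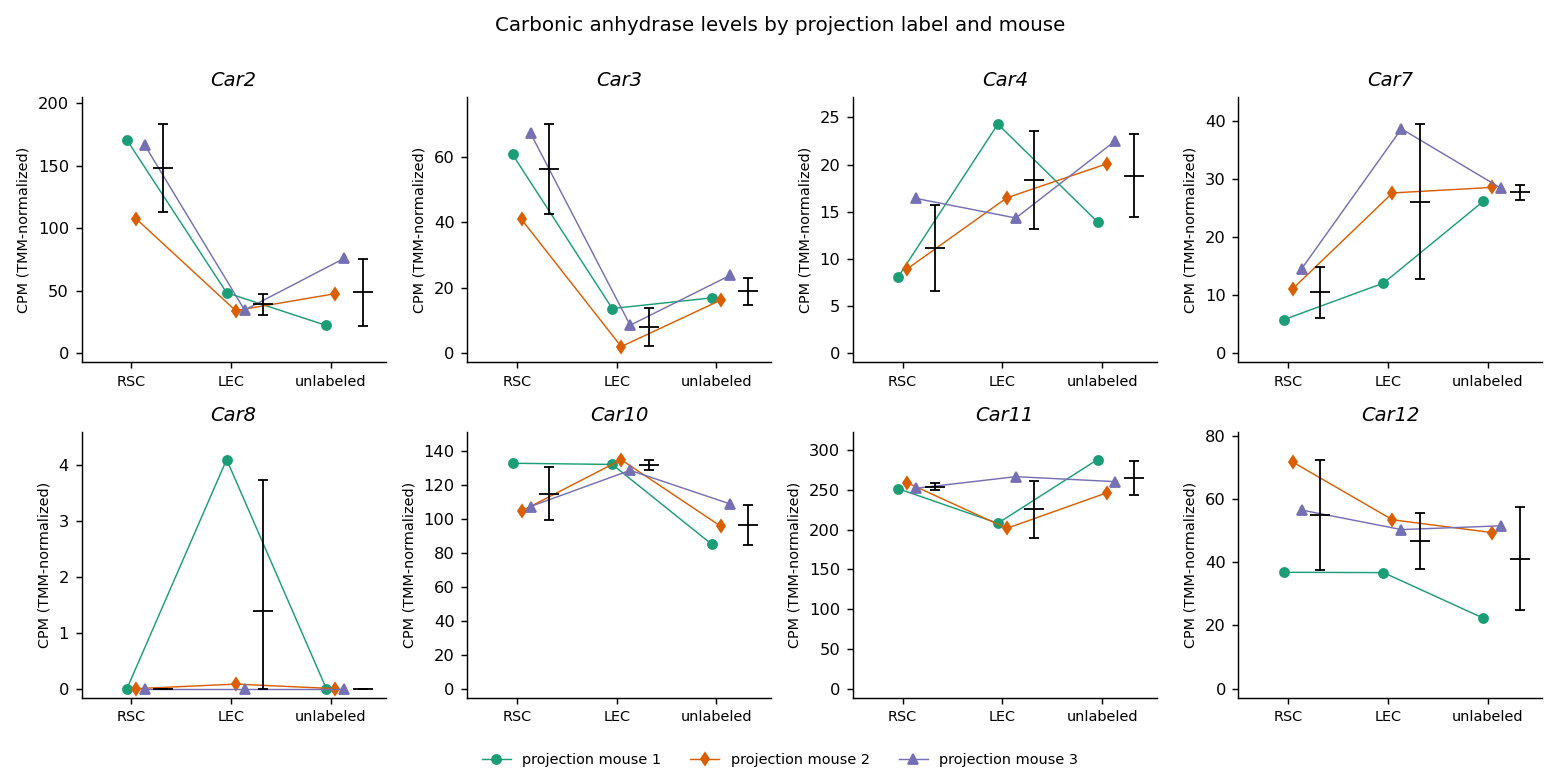
TMM-normalized CPM of each member (y axis, linear) in RSC-labeled, LEC-labeled and unlabeled cells (x axis) of 3 projection mice, 1 point per mouse joined by a line, with the mean and SD in black (lower bars stop at 0). Car2 and Car3 are highest with the RSC label in every mouse, and Car7 is lowest there in every mouse.

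Labels were then compared within each Synpr class, in 1 fit over 12 sums of 8 to 114 cells. Among Synpr-high cells Car2 did not separate by label, with 189, 135 and 175 CPM in RSC-labeled and 158, 137 and 216 CPM in LEC-labeled cells of projection mice 1, 2 and 3. The log2 difference was -0.03 with a wide SE of 1.11 (adjusted p = 1.0). Car3 held 69.5, 45.1 and 70.7 CPM against 44.9, 11.1 and 52.0 CPM. It was higher with the RSC label in all 3 mice, the labels overlapped, and the log2 difference was 0.77 ± 1.02 (adjusted p = 1.0). The LEC-labeled Synpr-high sums rested on 18, 11 and 16 cells.

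Car4 and Car10 did not overlap between the labels of Synpr-high cells. Car4 stood at 6.72, 7.43 and 16.8 CPM in RSC-labeled and 28.7, 17.2 and 17.3 CPM in LEC-labeled cells (log2 difference, -1.03 ± 0.56), and Car10 at 119.6, 107 and 101 CPM against 91.8, 96.1 and 67.0 CPM (0.37 ± 0.29). Neither passed the test (adjusted p = 1.0 for both), and 12.4% of genes did not overlap. By edgeR and by DESeq2 0 of 7 members were called in this class and 0 had an unadjusted p below 0.05, against 0.0%, 0.129% and 4.09% of 12410 genes. This does not show that the labels are alike.

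Among Synpr-low cells Car2 and Car3 were at or near 0 with both labels apart from single mice. Car2 in RSC-labeled cells was 46.6, 0 and 0 CPM, and the high sum, from 12 cells of projection mouse 1, also had the highest oligodendrocyte marker sum (7412 CPM, against 60.2 and 70.4 CPM in the others), whose part in the Car2 value was not tested. Car3 in RSC-labeled cells was 0, 22.7 and 0 CPM, from 34 counts in the sum of 14 cells of projection mouse 2. Of all 132 Synpr-low cells of that mouse 2 had a Car3 count. The LEC-labeled ones held 1 count and the unlabeled ones 0, so the 34 counts came from 1 cell. LEC-labeled Synpr-low cells held 0.484, 12.3 and 0.224 CPM of Car2 and at most 0.335 CPM of Car3. Of the 7 members 0 were called by edgeR, where 0.193% of genes were called, and 1 had an unadjusted p below 0.05 (Car3; 11.4% of genes). DESeq2, with 2.32% of genes called, called Car3 (adjusted p = 0.0437). Without projection mouse 2 the log2 difference of Car3 was -3.86 in place of 5.40, and with a Synpr limit of 100 CPM it was -3.27. The difference between the classes in the label effect was called for 0 of 7 members by either tool, where edgeR called 0.0645% and DESeq2 0.911% of genes. Car3 had an unadjusted p of 0.0174 (8.31% of genes had one below 0.05) and an adjusted p of 0.473.

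Car7 was higher in Synpr-low than in Synpr-high sums of the same label and mouse in all 6 pairs. Its Synpr-high values were 5.75, 5.62 and 12.2 CPM with the RSC label and 0.898, 0.929 and 25.1 CPM with the LEC label. Its Synpr-low values were 6.30, 30.8 and 52.3 CPM and 16.7, 33.0 and 40.8 CPM. Car10 was higher in Synpr-low sums in 5 of 6 pairs, the exception being RSC-labeled cells of projection mouse 2 (89.6 CPM, from 14 cells, against 107 CPM). Among cells without a projection label, those of the blindly sampled mouse included and scaled together with all 20 sums, Car7 was higher in Synpr-low sums of all 4 mice. Car10 was higher there in 3 of 4, with 98.5 CPM in Synpr-high and 80.1 CPM in Synpr-low cells of projection mouse 1.

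**Figure D5:**
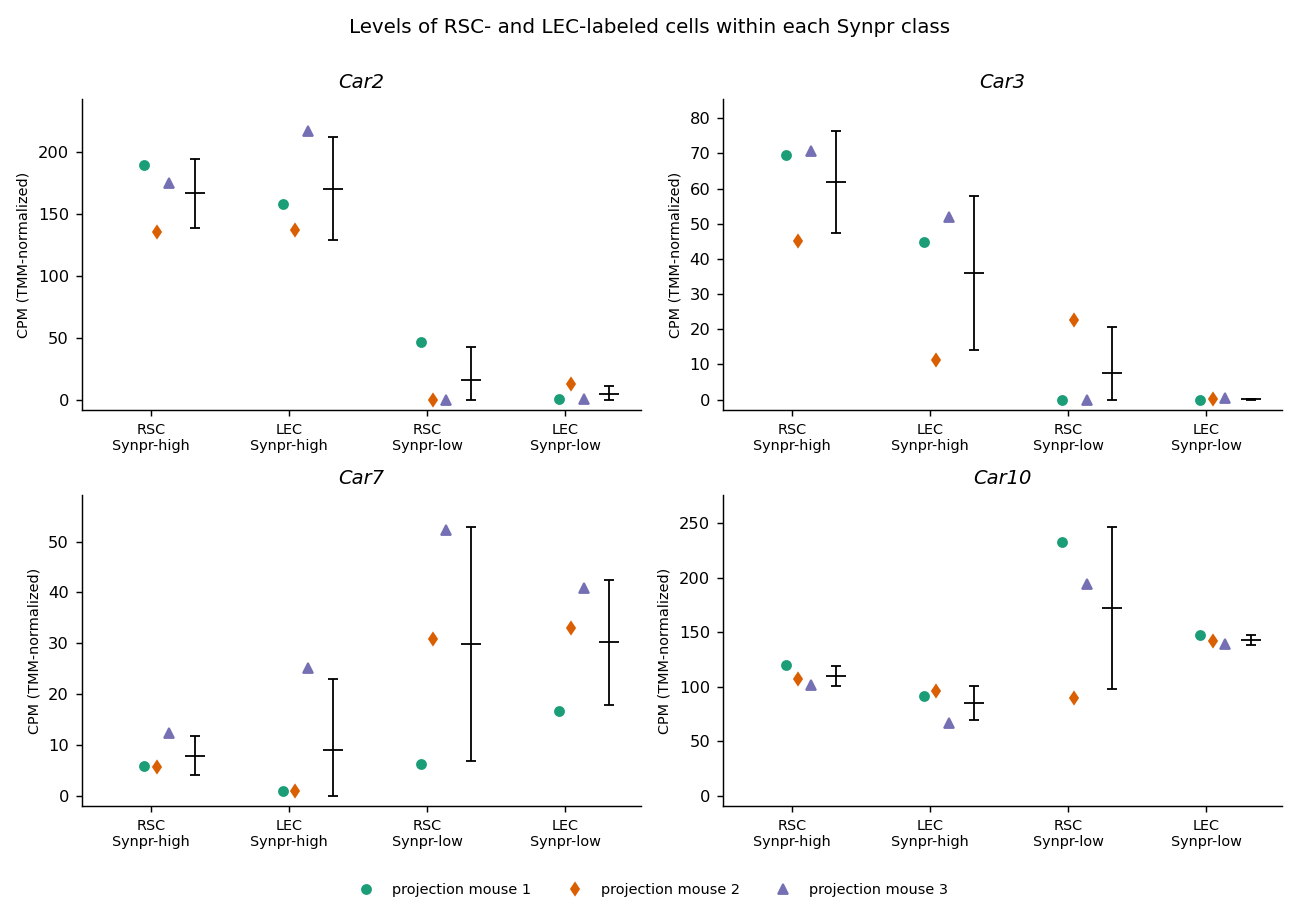
TMM-normalized CPM (y axis, linear) of 4 members in RSC- and LEC-labeled cells of each Synpr class (x axis), 1 point per projection mouse, with the mean and SD of 3 mice in black (lower bars stop at 0). Car2 and Car3 follow the Synpr class with both labels, and their 2 raised Synpr-low values, 46.6 CPM of Car2 and 22.7 CPM of Car3, come from single mice.

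The other carbonic anhydrases were at low levels in these neurons. Of the 8 further genes of the family, 4 passed the filter in the comparison of Synpr classes and 1 was called higher in Synpr-high cells, where 4.48% of all genes were. This was Car1, the neighbour of Car3, with 8.75 to 18.1 CPM in Synpr-high cells of the 4 mice and 0 to 2.92 CPM in Synpr-low cells (log2 difference, 4.61 ± 1.21; adjusted p = 0.0401). Car1 too passed the filter through its Synpr-high sums. DESeq2 did not call it (0.0645), nor did edgeR without projection mouse 1, 2 or 3 (0.126, 0.149 and 0.177). Car1 was found in 37 of the 406 thinned Synpr-high cells (9.11%; 6.50 to 12.3%) and 2 of the 521 Synpr-low cells. Car5a, Car6, Car9, Car13 and Car15 had 6 to 65 counts each in all kept cells, Car5b had 138, and Car14 had 320 counts in 12 cells. Of the 4 genes tested in both comparisons, 0 were called between RSC- and LEC-labeled cells, where 3.95% of all genes were.

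Transporters of bicarbonate, protons and chloride were counted from a list that had been written with earlier results in view. Of 20 acid-base and chloride transporters 18 had a row and 14 were tested, and 0 were higher and 2 lower in Synpr-high cells, where 4.34% of all genes were lower (median log2 difference, -0.03, against 0.00 over all genes). Slc4a10, a sodium-driven bicarbonate exchanger of neurons, stood at 67.3, 39.7, 56.5 and 50.9 CPM in Synpr-high and 104, 80.9, 72.3 and 113 CPM in Synpr-low cells (-0.79 ± 0.20; adjusted p = 0.0351). Slc26a4, an anion exchanger, stood at 4.68 to 7.72 CPM and 9.83 to 17.7 CPM (-1.15 ± 0.29; adjusted p = 0.0350). Between labels 1 of the 14 was called, where 3.95% of all genes were. This was Slc4a10, which was lower in RSC-labeled cells (49.9 ± 5.32 CPM) than in LEC-labeled cells (86.9 ± 22.7 CPM; -0.80 ± 0.20; adjusted p = 0.0472). Slc26a4 held 8.01 ± 2.49 and 16.3 ± 3.97 CPM (adjusted p = 0.161).

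Ptprz1, a receptor phosphatase with a carbonic anhydrase-like domain that is also made by glial precursors and astrocytes, had 1 count in all Synpr-high cells and 27, 67, 277 and 357 counts in Synpr-low cells of the 4 mice. It passed the filter through its Synpr-low sums. In the fit by label its RSC-labeled sums held 1, 0 and 4 counts and did not carry it past the filter, against 63, 171 and 300 in LEC-labeled sums. Ptprz1 was called lower in Synpr-high cells (edgeR, adjusted p = 0.000417) and in RSC-labeled cells (0.0137), while Ptprg was not called. Of all genes 4.34% and 2.06% were called lower. Both calls of Ptprz1 describe where its counts lay. The 6 astrocyte markers summed to 15.6 to 37.1 CPM in Synpr-high cells and 24.97 to 75.8 CPM in Synpr-low cells, with Aqp4 at 0 in the Synpr-high class and 0 of 2 tested called; their part in the Ptprz1 result was not tested.

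Levels over 20 sums per mouse, label and Synpr class were compared with those of 8604 genes with a mean of at least 10 CPM. The genes most like Car2 were 1500009L16Rik, Wnt10a and Tnfaip8l3 (Pearson's r across sums, 0.935, 0.934 and 0.9001), and those most like Car3 were Gpd2, Gng2 and Kcnc1 (0.951, 0.9502 and 0.947). Car2 and Car3 were the 2 members most alike, with r = 0.776, which lay below those values. Car7 was most like Nhsl2, Nrsn2 and Sgms1 (0.876, 0.874 and 0.859), Car10 like Tmcc2, Lrrn1 and Enoph1 (0.812, 0.786 and 0.780), and Car12 like Cyb5r1, Pxmp3 and Prkaa2 (0.807, 0.782 and 0.779). Car4 was most like Uqcrq, Sdhb and mt-Cytb (0.808, 0.692 and 0.674), all genes of mitochondrial respiration. The 20 sums were themselves divided by the Synpr limit, so genes that differ between the classes correlate across them by construction. These values do not show that genes rise together from cell to cell within a class. Sums of 1 mouse share plates and depth, and no p-value was computed.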

How the data were processed

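The authors tagged reads to barcodes and UMIs, aligned them with STAR and deposited tables of raw counts (genes by cells), with the animal and projection label of each cell; per the labels' processing notes the build was NCBIM37 and Seurat was used. The use of strand and the STAR version were not given in the sources used here. Totals are stated in reads, so 1 molecule may give several counts. Spike-ins (89 ERCC rows) were left out; Car6, Car14 and Car15 have no row for the blindly sampled mouse and were given 0 there.

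Counts were summed per mouse and group (at least 5 cells) and tested with edgeR 4.0.16 (R 4.3.3), using TMM scaling, the filterByExpr filter and its quasi-likelihood F test at a Benjamini-Hochberg adjusted p of 0.05 over all genes tested, in 7 comparisons; the study's cell-level tests were not used. SEs are the log2 difference divided by the square root of F. P-values measure the spread between mice, 3 or 4 per group. Alternatives were DESeq2 1.42.0, the mouse as a block, no filter, at least 2 counts of Snap25 and Slc17a7, and thinning to 20000 counts. Others were Synpr limits of 100 and 400 CPM, leaving out each mouse, and leaving out 75 cells with counts of other types. Those cells had at least 3 oligodendrocyte markers or counts of both Gad1 and Gad2. The block combined with thinning and with the cells left out was added after the data were seen. Groups share animals: deviations from group means correlated across genes, between sums of 1 mouse, with a median of 0.232 over 4 pairs of Synpr sums (others, -0.113), 0.0449 over projection sums and 0.0288 over sums by both.

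Clusters came from Seurat 5.3.0 (2000 features, 30 components, resolution 0.1, carbonic anhydrase rows left out); no doublet caller was run. The fits were tested on simulated data. Named genes were the members, the rest of the family, from each list the up to 4 with the lowest adjusted p, and the 3 genes most alike per member. Members and lists were chosen with earlier results of these data known. Some genes and sequences that the rule would name are not reported here.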

Additional observations from a re-analysis of the deposited data

Results flagged for a closer look

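Among 32 checks of the highest or lowest of 4 mice, 3 stood apart. Chance passes some such checks, and how many it passes for levels near 0 was not determined. Car4 in Synpr-low cells was 8.23 CPM in the blindly sampled mouse, the lowest, against 18.0 to 18.9 CPM in the projection mice. Car8 in Synpr-high cells was 0.312 CPM in the mouse sampled blindly, which is 1 count, and 0 elsewhere, a pattern that always stands apart in this check. Car8 in Synpr-low cells was 3.10 CPM in projection mouse 1 and at most 0.0466 CPM in the others.

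The 101 cells that lacked a count of Snap25 or Slc17a7 were in no comparison and held 1284390 counts in all. Pooled over them, Car2 stood at 60.7 CPM, Car3 at 7.01 CPM, Car7 at 7.01 CPM, Car10 at 33.5 CPM, Car11 at 138 CPM and Car12 at 13.2 CPM, each above the 2.34 CPM that 3 counts give. In these cells Gad1, an inhibitory neuron gene, stood at 635 CPM (9.36 CPM in kept cells). Car2 came from 9 of the cells and Car11 from 26.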

How the results depend on the processing

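No difference of a member called in the report's edgeR fit changed direction in the settings tried. The difference of Car3 between labels within the Synpr-low class, not called there, ran from -3.86 to 7.33. Between Synpr classes Car2 and Car3 were called in 15 of 15 settings (log2 difference, 4.48 to 7.26 and 6.01 to 7.93), Car7 in 13 and Car10 in 7. Leaving out 1 mouse at a time gave 2 to 3 called members in place of 4. Car3 is counted among these members, but it passed the filter through its Synpr-high sums. Its calls between Synpr classes describe where its counts lay and are no measure of robustness. Between RSC and LEC labels Car2 was called in 10 of 12 settings and Car3 in 11, Car7 in 3, and leaving out 1 mouse gave 0 to 2 called members in place of 2. For RSC against unlabeled cells, where 0 members were called, DESeq2 called 3, no filter 1, thinning 2, leaving out cells with counts of other types 1, the block (mouse) with those cells left out 2 and the block with thinning 3. Car12 was called between Synpr classes in 1 setting, the block with thinning (adjusted p = 0.0403). Within the Synpr-low class DESeq2 and no filter each called 1 member in place of 0. The cause of these differences was not tested.

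Over all genes, calls moved by more than 1.5 times as follows. Between RSC and LEC labels, 552 became 1145 with DESeq2, 839 with the block and thinning and 59 to 391 with 1 mouse left out. For RSC against unlabeled cells, 228 became 663 with DESeq2, 448 with thinning, 513 with the block and thinning and 8 to 47 with 1 mouse left out. For LEC against unlabeled cells, 0 became 114 with DESeq2, 2 with the block, 9 without a filter, 44 with thinning, 54 with the block and thinning, 3 with the block and other cells left out and 0 to 2 with 1 mouse left out. Between Synpr classes, 1203 became 1995 with the block (1938 with other cells left out, 1870 with thinning) and 545 to 1581 with 1 mouse left out. Within the Synpr-high class, 0 became 16 with DESeq2, 5 without a filter and 1 with the block and thinning. Within the Synpr-low class, 24 became 288 with DESeq2, 15 with the block, 61 without a filter, 10 and 42 with the block and other cells left out or thinning, and 0 to 7 with 1 mouse left out. For the difference between classes, 8 became 113 with DESeq2, 1 with the block, 24 without a filter, 3 with at least 2 counts of the sort genes, 3 and 4 with Synpr limits of 100 and 400 CPM, 4 with the block and other cells left out, and 0 to 1 with 1 mouse left out. The block on its own changed the call of no member.

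Sums of 8 to 18 cells limit the comparisons within Synpr classes, and the blindly sampled mouse had the shallowest cells.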
